A study of Mus musculus with 17 samples.

Results

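Ebf1 on mouse chromosome 11 was followed through B cell activation by the accessibility of its chromatin. The locus was taken as every region of accessible chromatin that the deposited table annotates to Ebf1, either as the overlapping or nearest transcript or as the nearest transcription start, and these were 54 of 66177 regions. Of these, 37 carried the name Ebf1 in both annotation columns, 14 in the transcript column only and 3 in the start column only. They lie between chr11:44388108-44884041 in mouse build mm9, on either side of and within a gene on the plus strand whose start is placed at position 44431636. Each region is named here by the distance of its midpoint from that start. In GENCODE vM1 the longest Ebf1 transcript, ENSMUST00000081265.5, spans chr11:44430819-44821593 with 16 exons and 15 introns. By this transcript 41 regions lay within introns, 27 of them in intron 6, 2 overlapped exons without reaching an intron, 2 overlapped both exon and intron, 6 lay upstream and 3 downstream. The regions were 160 to 1352 bases wide, with a median of 509. A single region, at -0.9 kb (chr11:44430272-44431206), was annotated as promoter, and it covers the first part of exon 1 and the bases before it.

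The assay was ATAC-seq, in which a transposase inserts sequencing adapters into open chromatin, on cells sorted by flow cytometry. Naive B cells (nB; B220+ GL7- Fas-) came from lymph nodes of unimmunized mice. Germinal center B cells (GCB; B220+ GL7+ Fas+ PE+) came from lymph nodes 30 days after immunization with phycoerythrin (PE) in complete Freund's adjuvant, and bone marrow plasma cells (BMPC; CD138+) were sorted at the same time after the same immunization. The KO animals were Dnmt3afl/flDnmt3bfl/fl and carried 1 Cre allele, whose product deletes the floxed parts of Dnmt3a and Dnmt3b, which encode the enzymes that place new DNA methylation. The controls (C) were Cre-negative littermates, also Dnmt3afl/flDnmt3bfl/fl, so that both genotypes carried the floxed alleles and the KO animals alone carried Cre. The analysis used 3 C nB, 2 KO nB, 2 C GCB, 4 KO GCB, 3 C BMPC and 2 KO BMPC libraries, with 2 mice pooled in each GCB library and 1 mouse in each other library. A further sample labelled KO BMPC had no column of values and was not analysed here. All nB libraries were from males and all BMPC libraries from females, while GCB pools were of either sex, so cell type cannot be told apart from sex, tissue or immunization in the comparison of nB with BMPC. Nor can it be told apart from immunization or pooling between nB and GCB, or from tissue or pooling between GCB and BMPC.

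Early B cell factor 1, the product of Ebf1, is a DNA-binding factor that commits lymphoid progenitors to the B lineage and keeps B cell genes such as Cd79a and Pax5 active. Ebf1 itself is transcribed from a distal promoter, which responds to E2A, STAT5 and EBF1, and from a proximal promoter, which responds to Pax5, Ets1 and PU.1. On differentiation to plasma cells the B cell program is shut down, while germinal center B cells keep most of it.

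The sequences of 5 regions are shown because the results turn on them. They include the farthest upstream region, which was lowest in BMPC, and the promoter, which was lowest in GCB. In intron 6, +45.7 kb was called higher in C GCB than in both other cell types. The +98.1 kb region, also in intron 6, had the largest called increase from C nB to C BMPC. The +448.7 kb region beyond the gene had the largest decrease. The sequences were read from the NCBIM37 assembly, which is the same as mm9, on the plus strand. Each is the central 300 bases of its region or, for the promoter region, the 300 bases just before the GENCODE start. Capitals mark the cores searched for on both strands, which were CAGCTG for E2A, GGAAGT for PU.1 and ATGCAAAT for Oct-2, together with TCCCNNGGGA for EBF, which occurred in none of them. The promoter sequence holds none of these cores and 14 CpG dinucleotides.
Ebf1 -43.1 kb (chr11:44388389-44388688): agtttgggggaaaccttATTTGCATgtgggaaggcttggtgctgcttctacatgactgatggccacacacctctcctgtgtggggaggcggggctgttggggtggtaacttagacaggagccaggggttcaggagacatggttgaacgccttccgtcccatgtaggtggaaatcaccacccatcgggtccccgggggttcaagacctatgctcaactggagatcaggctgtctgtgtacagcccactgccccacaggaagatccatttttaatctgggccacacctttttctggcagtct
Ebf1 -0.9 kb (chr11:44430519-44430818): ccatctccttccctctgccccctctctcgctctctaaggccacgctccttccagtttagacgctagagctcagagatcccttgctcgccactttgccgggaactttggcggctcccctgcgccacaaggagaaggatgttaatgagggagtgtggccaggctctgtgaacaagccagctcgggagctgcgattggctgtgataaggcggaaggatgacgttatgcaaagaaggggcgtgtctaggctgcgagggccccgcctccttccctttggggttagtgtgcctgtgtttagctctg
Ebf1 +45.7 kb (chr11:44477165-44477464): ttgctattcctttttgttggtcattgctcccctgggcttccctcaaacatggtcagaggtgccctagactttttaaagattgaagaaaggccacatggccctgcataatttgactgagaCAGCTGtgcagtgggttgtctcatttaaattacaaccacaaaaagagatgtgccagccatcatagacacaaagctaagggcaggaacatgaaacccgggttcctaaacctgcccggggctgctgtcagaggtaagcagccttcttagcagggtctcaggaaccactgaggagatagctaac
Ebf1 +98.1 kb (chr11:44529586-44529885): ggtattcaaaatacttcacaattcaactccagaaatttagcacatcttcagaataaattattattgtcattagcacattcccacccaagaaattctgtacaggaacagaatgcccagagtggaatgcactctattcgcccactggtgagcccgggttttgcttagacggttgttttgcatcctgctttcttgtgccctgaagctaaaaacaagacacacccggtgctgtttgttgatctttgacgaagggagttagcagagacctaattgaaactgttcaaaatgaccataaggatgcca
Ebf1 +448.7 kb (chr11:44880163-44880462): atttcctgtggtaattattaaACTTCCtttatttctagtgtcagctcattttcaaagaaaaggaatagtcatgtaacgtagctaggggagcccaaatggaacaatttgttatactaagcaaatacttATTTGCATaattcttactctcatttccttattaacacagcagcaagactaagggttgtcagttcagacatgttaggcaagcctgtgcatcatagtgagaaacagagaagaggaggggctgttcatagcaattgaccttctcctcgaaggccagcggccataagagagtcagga

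Accessibility is given in RPPM, reads in a region per 1000000 reads in all regions of that library. Reads in regions numbered 4104875 to 6079018 in nB, 907959 to 2280954 in GCB and 5357687 to 8232313 in BMPC libraries, so 3 reads, the upper limit that a count of 0 allows by counting error alone, correspond to 0.364 to 3.30 RPPM. GCB libraries were therefore the least precise, and 21 of the 54 regions had at least 1 GCB library at or under 3 reads, against 6 for nB and 11 for BMPC. Mitochondrial regions took 2.56 to 10.1% of the reads, with every GCB library above every other library. The sorted populations were checked by the summed accessibility of the regions nearest the starts of marker genes. For 6 of 6 B cell genes the sum was 212 to 245 RPPM in nB, 141 to 178 in GCB and 44.6 to 49.0 in BMPC, and for 6 of 6 plasma cell genes it was 183 to 205, 125 to 143 and 243 to 264 RPPM. For the germinal center list, 6 of 6 genes gave 148 to 166 RPPM in nB, 170 to 226 in GCB and 181 to 200 in BMPC, so the sum did not set GCB apart from BMPC. The T cell list, with a region for 4 of 7 genes of which only that of Lat covers a start, summed to 82.7 to 97.5 RPPM in nB, 32.9 to 46.0 in GCB and 51.6 to 74.6 in BMPC, the myeloid list (6 of 8 genes) to 23.4 to 29.1, 23.4 to 39.6 and 24.6 to 30.8, the erythroid list (3 of 5) to 49.8 to 65.5, 41.9 to 57.9 and 68.2 to 78.8, and the bone marrow progenitor list (3 of 6) to 6.89 to 11.4, 2.81 to 8.81 and 3.47 to 5.85. The 5 naive B cell genes summed to 214 to 253 RPPM in nB, 96.1 to 123 in GCB and 113 to 121 in BMPC. The part of depth, mitochondrial reads and other cell types in the results was not tested. In sorted bulk cells, fewer cells with an open region and a less open region in each cell cannot be told apart.

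The locus held a few strongly accessible regions among many weak ones. In C nB the highest was the promoter at 67.4 ± 3.26 RPPM (SD, n = 3), followed by the +146.8 kb region in intron 6 at 64.9 ± 8.58, the -43.1 kb region at 58.9 ± 1.57, the +332.5 kb region in intron 10 at 55.2 ± 4.27 and the +6.7 kb region in intron 4 at 42.3 ± 3.69. The +146.8 kb values overlapped those of both the promoter and the -43.1 kb region, which did not overlap each other, while the +6.7 kb region was below all of them in every C nB library. The median over the 54 regions was 8.89 RPPM. These are read counts per region and not per base, and the +146.8 kb region is also the widest.

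The order differed in the other cell types. In C GCB the highest levels were 41.9 ± 3.59 RPPM (SD, n = 2) at +146.8 kb, 41.1 ± 6.51 at -6.8 kb and 37.3 ± 4.23 at +6.7 kb, which did not differ beyond their spread. In C BMPC the +146.8 kb region was highest at 54.2 ± 1.94 RPPM (SD, n = 3), the promoter second at 45.1 ± 3.74 and the -6.8 kb region next at 31.0 ± 5.58. The +275.1 and +276.7 kb regions in intron 8, at 24.5 ± 2.62 and 22 ± 2.97 RPPM, completed the 5 highest of C BMPC. Across the locus the C mean was highest in nB at 33 of 54 regions, in GCB at 8 and in BMPC at 13, where over all 66177 regions the shares were 32.0, 31.8 and 36.2%. The descending order nB, GCB, BMPC held at 23 regions, or 42.6% of the locus against 21.1% of all regions, and the ascending order nB, GCB, BMPC at 11 regions, or 20.4% against 21.1%.

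**Figure D1:**
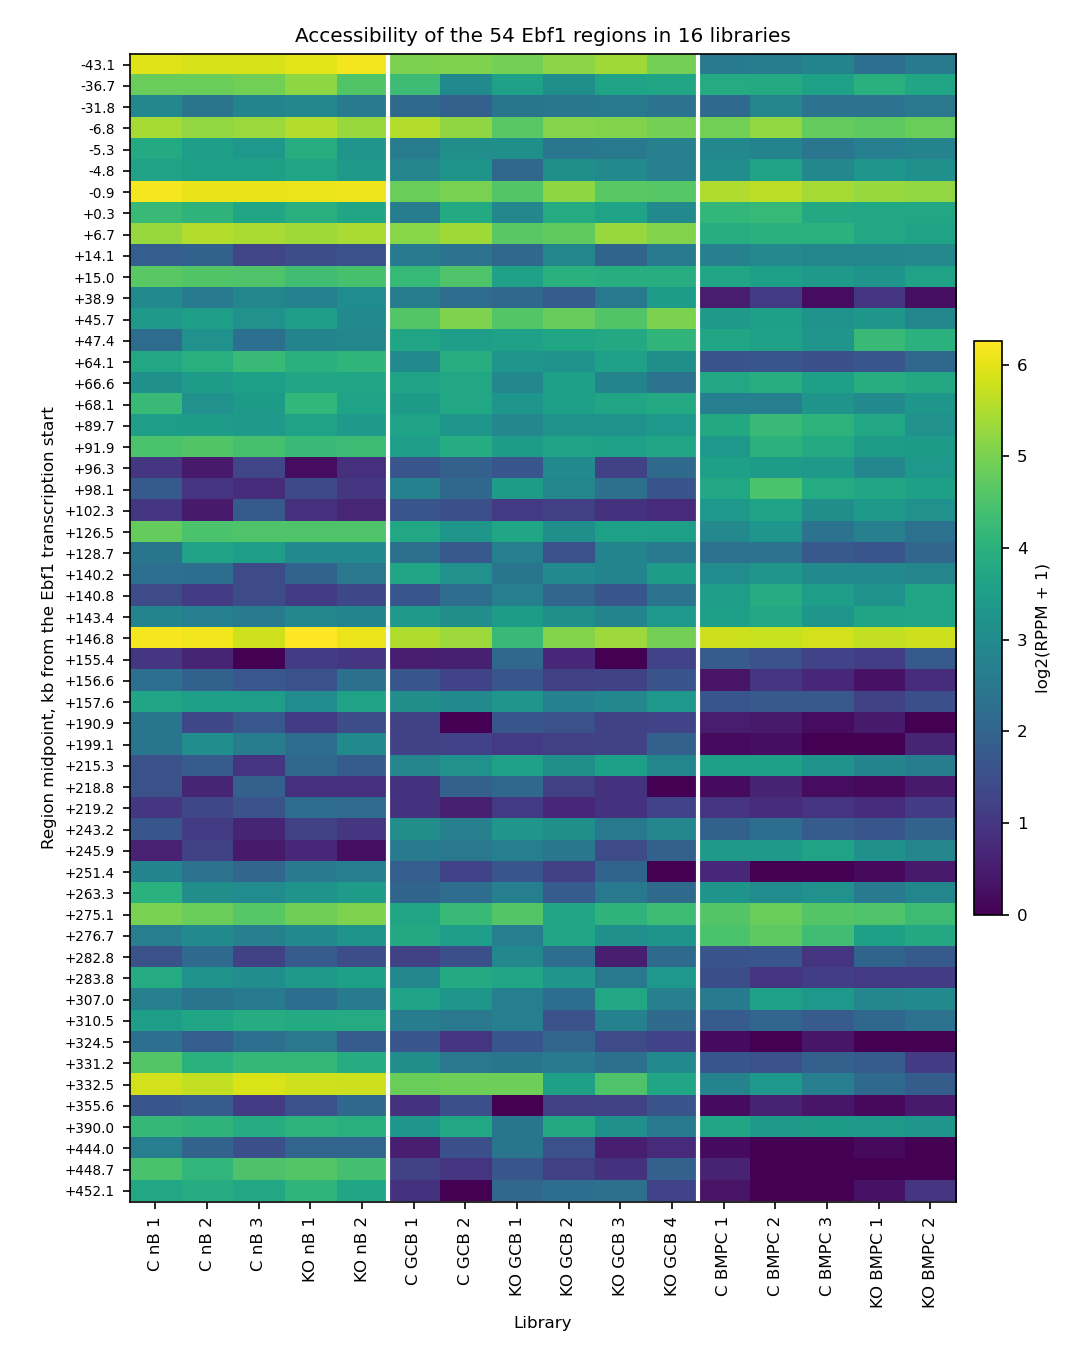
Accessibility as log2(RPPM + 1), by color, of the 54 Ebf1 regions (rows, ordered by distance in kb of the midpoint from the start) in the 16 libraries (columns; white lines separate nB, GCB and BMPC). The rows at -0.9 and +146.8 kb are bright in all 3 cell types, while the rows at -43.1, +332.5 and +448.7 kb fade from nB to BMPC.

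From C nB to C GCB the promoter lost accessibility, a group of regions in intron 6 gained it, and the 2 farthest downstream regions fell to 3 reads or fewer. A region was called at a Benjamini-Hochberg adjusted p of at most 0.01 over all regions in limma and a change of at least 1 on the log2(RPPM + 1) scale, which understates changes of weak regions. By this rule 6 of the 54 regions were more accessible, where 14.2% of all regions were, and 9 were less accessible, where 8.47% were. The median log2 fold change over the locus was -0.50, against 0.05 over all regions. All 6 regions that rose lay in intron 6. The 9 that fell comprised 1 upstream region, the promoter, 5 intronic regions and 2 downstream regions.

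At the promoter, the C nB libraries measured 71.1, 65.9 and 65.1 RPPM, the C GCB libraries 28.1 and 30.9, and the C BMPC libraries 45, 48.9 and 41.4. The 3 cell types did not overlap, with GCB lowest, and the log2 fold change from C nB to C GCB was -1.16 ± 0.15 (SE; limma adjusted p 5.3e-07). Regions annotated as promoters elsewhere had a median log2 fold change of -0.18 in this comparison, and 6.99% of 14332 were called less accessible. Among starts described below, 2 of 12 for Ebf1 regulators and partners and 2 of 8 for neighboring genes were also called less accessible. None of these was called more accessible. With quantile normalization the promoter changed by -0.95, short of the fold required. The region nearest the annotated start, at +0.3 kb across exon 1 and intron 1, measured 17.8, 15.8 and 12.1 RPPM in C nB and 5.28 and 13.1 in C GCB, and its log2 fold change of -0.77 ± 0.29 was not called. The C GCB libraries lay on either side of the lowest C nB library, and without C GCB replicate 2 its change was -1.35 (limma adjusted p 0.0023).

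Among the regions that gained accessibility, that at +45.7 kb in intron 6 stood out by its level. It measured 9.26, 10.2 and 8.0 RPPM in C nB, 22.9 and 32.3 in C GCB and 9.23, 10.6 and 8.10 in C BMPC. Every GCB library, KO included, was above every library of the other cell types. It was the single region called higher in C GCB than in both C nB (1.48 ± 0.23, limma adjusted p 6.2e-06) and C BMPC. The largest increases were at weaker regions, +245.9 kb (1.78 ± 0.35), +243.2 kb (1.77 ± 0.34), +215.3 kb (1.57 ± 0.30) and +140.2 kb (1.44 ± 0.32), with limma adjusted p from 0.00012 to 0.00059. The +243.2 kb region measured 2.19, 1.13 and 0.558 RPPM in C nB and 7.48 and 5.62 in C GCB. At a pseudocount of 5 RPPM these 4 weak regions fell short of the fold required, and without C GCB replicate 1 the +140.2 kb region was no longer called (1.18, limma adjusted p 0.025).

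The largest decreases were at the downstream end, past the last exon. The +448.7 kb region measured 21.2, 16.4 and 21.8 RPPM in C nB but 1.32 and 0.937 in C GCB, both at or under 3 reads, a log2 fold change of -3.28 ± 0.34 (limma adjusted p 1.6e-08). The +452.1 kb region, the farthest downstream, went from 12.4, 13.6 and 12.3 RPPM to 0.88 and 0, a change of -3.33 ± 0.37 (limma adjusted p 3.8e-08). Both regions thus went from clear signal in each nB library to the detection limit. Smaller decreases were called at +199.1 kb (-1.47 ± 0.37), +331.2 kb (-1.46 ± 0.30) and +263.3 kb (-1.23 ± 0.30). The +331.2 kb call was lost without C GCB replicate 2 (-1.17, limma adjusted p 0.015). The +263.3 kb call was lost without C nB replicate 1 (-0.92) or C GCB replicate 1 (-1.12) and at a pseudocount of 5 RPPM (-0.78). The +199.1 kb call was lost without C nB replicate 2 (-1.29) or either C GCB library (-1.44 and -1.49), at pseudocounts of 0.1 and 5 RPPM (-1.94 and -0.73) and in DESeq2 (-2.09).

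From C nB to C BMPC both ends of the locus lost accessibility, and 20 of the 54 regions became less accessible, where 20.1% of all regions did. In the same comparison 9 regions became more accessible, where 18% of all regions did. The median log2 fold change was -0.56 over the locus and 0.03 over all regions. All 9 regions that rose were intronic, 7 of them in intron 6, and the 20 that fell included 2 upstream, 14 intronic and all 3 downstream regions. Taking both genotypes, every nB library was above every BMPC library at 27 of 54 regions, against 27.8% of all regions, and below every BMPC library at 12, against 29.5% of all regions.

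At the upstream end, the -43.1 kb region (chr11:44388108-44388968) measured 60.7, 57.8 and 58.1 RPPM in C nB, 31.7 and 31.9 in C GCB and 4.94, 5.29 and 6.07 in C BMPC. This region carries the name Ebf1 in the start column only, and its transcript name is that of the neighboring gene Rnf145. The cell types did not overlap in either genotype, and the decrease to C BMPC of -3.22 ± 0.15 (SE; limma adjusted p 7.2e-16) had the smallest p of the locus. The decrease to C GCB, -0.87 ± 0.17, was short of the fold required for a call although its limma adjusted p was 0.00014. The neighboring -36.7 kb region fell in both later cell types, by -1.23 ± 0.26 to C GCB and -1.12 ± 0.24 to C BMPC. The -31.8 kb region, which partly overlaps the transcript 4930597A21Rik, was called in no comparison.

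Within the gene, the +332.5 kb region in intron 10 measured 56.3, 50.5 and 58.8 RPPM in C nB, 28.1 and 28.6 in C GCB and 5.98, 9.12 and 5.45 in C BMPC, a decrease to BMPC of -2.87 ± 0.24 (limma adjusted p 7.8e-11). The adjoining +331.2 kb region followed with 23.1, 15.1 and 16.9 RPPM, then 7.48 and 4.68, then 2.21, 2.01 and 2.80. Both thus stepped down from nB to GCB to BMPC without overlap between the C groups. By contrast, the +6.7 kb region in intron 4 measured 38.2, 45.4 and 43.4 RPPM in C nB, 34.3 and 40.3 in C GCB and 14.0, 14.8 and 15.1 in C BMPC, so its loss was between GCB and BMPC. Downstream, the +448.7 kb region was at 0.520, 0 and 0 RPPM in C BMPC and at 0 in both KO BMPC libraries, where a count of 0 allows up to 3 reads, or 0.364 to 0.560 RPPM. The +199.1 kb region in intron 6 went from 4.39, 7.35 and 5.21 RPPM in C nB to 0.13, 0.182 and 0 in C BMPC, all at or under 3 reads (-2.57 ± 0.33, limma adjusted p 1.6e-07).

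The 9 regions that rose had C nB means of 0.726 to 5.97 RPPM, below the locus median of 8.89. The largest increase was at +98.1 kb in intron 6, with 2.44, 0.942 and 0.744 RPPM in C nB, 5.72 and 3.28 in C GCB and 12.5, 21.3 and 13.5 in C BMPC (2.85 ± 0.36, limma adjusted p 9.7e-08). Its neighbors at +96.3 and +102.3 kb also rose, by 2.54 ± 0.36 and 2.28 ± 0.32, and all 3 lie in intron 6. Further increases were called at +245.9 kb (2.71 ± 0.32), +140.8 kb (2.31 ± 0.29), +215.3 kb (2.00 ± 0.27), +276.7 kb (1.72 ± 0.22), +14.1 kb (1.14 ± 0.28) and +140.2 kb (1.12 ± 0.28). The +276.7 kb region in intron 8 measured 5.36, 6.97 and 5.58 RPPM in C nB and 21.5, 25.2 and 19.3 in C BMPC and was the strongest of them. The promoter changed from C nB to C BMPC by -0.57 ± 0.13 and the +146.8 kb region by -0.25 ± 0.17, and neither was called.

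**Figure D2:**
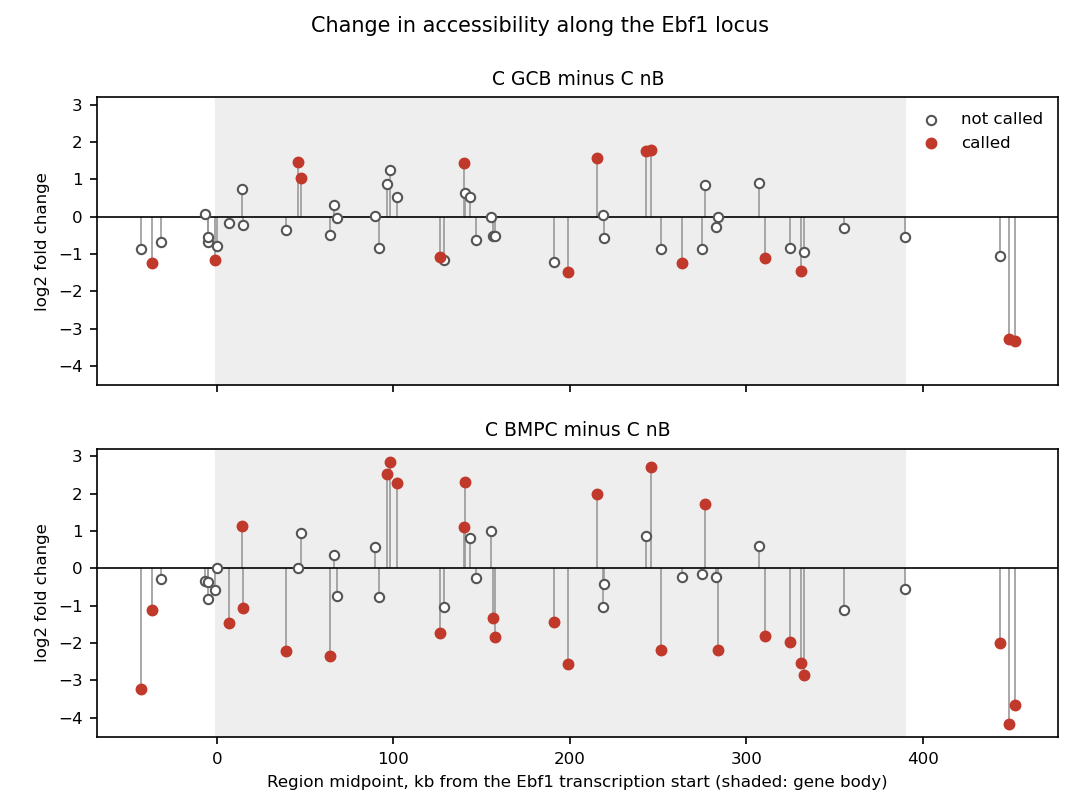
Log2 fold change of each of the 54 Ebf1 regions from C nB to C GCB (upper) and to C BMPC (lower) against the distance in kb of its midpoint from the start, with the gene body shaded. Red points are called and open points are not. The called increases lie within the gene body, and the decreases of -3.28 and -4.17 at +448.7 kb lie beyond its end.

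From C GCB to C BMPC 5 regions were more accessible, where 11.3% of all regions were, and 9 were less accessible, where 19.1% were. With quantile normalization, which shifted the median of all regions from -0.06 to 0.09, the counts were 7 and 8. The 5 that rose were +102.3 kb (1.75 ± 0.36), +140.8 kb (1.66 ± 0.33), +96.3 kb (1.66 ± 0.40), +98.1 kb (1.61 ± 0.40) and +263.3 kb (1.0 ± 0.30). The largest decreases were at -43.1 kb (-2.35 ± 0.17), +283.8 kb in intron 8 (-2.17 ± 0.34), +332.5 kb (-1.93 ± 0.27), +38.9 kb (-1.87 ± 0.39) and +64.1 kb (-1.85 ± 0.27). The +283.8 kb region measured 13.4, 8.10 and 7.44 RPPM in C nB, 6.6 and 13.1 in C GCB and 1.82, 0.912 and 1.25 in C BMPC, so that GCB overlapped nB and neither overlapped BMPC. The +64.1 kb region measured 12.2, 14.3 and 17.5 RPPM in C nB, 7.04 and 14.1 in C GCB and 2.08, 2.19 and 1.87 in C BMPC, and its GCB libraries likewise reached into the nB range. The +263.3 kb call was lost on leaving out any of the C GCB or C BMPC libraries (0.89 to 1.11, limma adjusted p 0.013 to 0.064), that at +96.3 kb without C GCB replicate 1 (1.53, adjusted p 0.018) and that at +98.1 kb without C GCB replicate 2 (1.28, adjusted p 0.042) or C BMPC replicate 2 (1.39, adjusted p 0.012). At a pseudocount of 5 RPPM the +38.9 kb region changed by -0.78, short of the fold required.

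**Figure D3:**
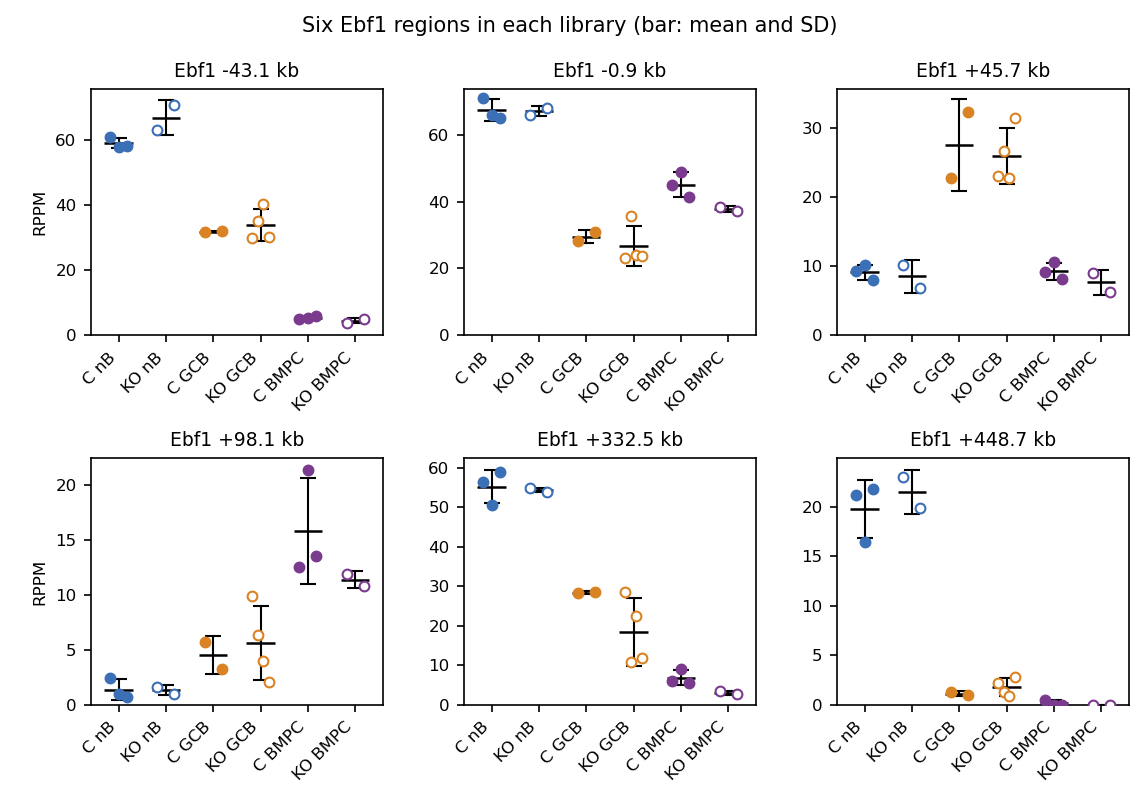
RPPM of 6 Ebf1 regions in each library (filled points, C; open points, KO), with the mean (bar) and SD of each group. The -43.1, +332.5 and +448.7 kb regions fall from nB through GCB to BMPC, the promoter at -0.9 kb is lowest in GCB, the +45.7 kb region is highest in GCB and the +98.1 kb region is highest in BMPC.

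Summed over the 54 regions, the locus was more accessible in naive B cells than in both later cell types. Among C libraries the sum was 785, 723 and 708 RPPM in nB, 523 and 534 in GCB, and 463, 527 and 439 in BMPC. Among KO libraries it was 770 and 741 RPPM in nB, 458, 474, 484 and 466 in GCB, and 414 and 413 in BMPC. Every nB library lay above every GCB and BMPC library, and the GCB and BMPC ranges overlapped. With both genotypes pooled, nB exceeded GCB 1.52-fold (two-sided exact permutation p = 0.00433, adjusted over 3 comparisons 0.0119) and BMPC 1.66-fold (exact permutation p = 0.00794, adjusted 0.0119), and each is the smallest p that these numbers of libraries allow. Over the 37 regions named Ebf1 in both columns these were 1.31-fold and 1.28-fold, and as a mean of log2(RPPM + 1) nB was above GCB by 0.32 and above BMPC by 0.59, with the same exact permutation p. The sums in GCB and BMPC differed 1.09-fold (exact permutation p = 0.126), and leaving out C BMPC replicate 2 made this an adjusted p of 0.0286 by exact permutation. When each region counted equally, as the mean of log2(RPPM + 1), GCB was above BMPC by 0.27 (exact permutation p = 0.00433, adjusted 0.00649), whereas over the same 37 regions the difference in log2 sums was 0.04 in the other direction. Within the same sex, the male nB sums of 708 to 785 RPPM were above the 2 male GCB sums of 466 and 534, and the female GCB sums of 458 to 523 overlapped the female BMPC sums of 413 to 527.

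The ends of the locus moved more than its body. The 3 regions at -43.1 to -31.8 kb summed to 90.1 to 105 RPPM in nB, 41.7 to 56.6 in GCB and 21.3 to 24.6 in BMPC libraries. The 3 downstream regions summed to 33.0 to 42.3 RPPM in nB, 2.64 to 9.91 in GCB and 0 to 0.933 in BMPC. The 5 regions from -6.8 to +0.3 kb summed to 136 to 155, 65.0 to 96.5 and 90.4 to 121 RPPM, so that around the start BMPC tended to lie above GCB and the ranges overlapped. The 43 regions of the gene body summed to 442 to 496, 325 to 393 and 299 to 382 RPPM, with opening and closing regions together.

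**Figure D4:**
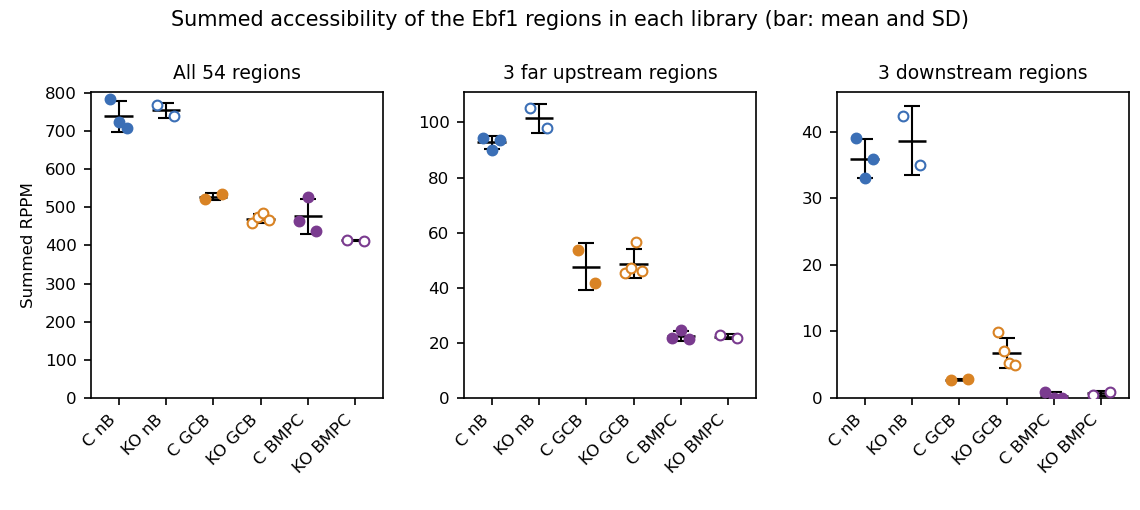
Summed RPPM in each library (filled points, C; open points, KO) over all 54 Ebf1 regions, the 3 far upstream regions and the 3 downstream regions, with group means and SD. The nB libraries are above all others in each panel, and the downstream sums are 0 to 0.933 in BMPC.

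The KO group means share no library with the C group means, but 1 fit over all 16 libraries gave the spread for both. The KO comparisons gave counts of called regions as follows. From KO nB to KO GCB 6 regions were more accessible (18.4% of all regions) and 14 less accessible (7.84%), from KO nB to KO BMPC 7 (18.4%) and 20 (16.9%), and from KO GCB to KO BMPC 2 (12.1%) and 14 (19.9%). With quantile normalization the first and last of these became 2 and 18, and 6 and 10, and leaving out either KO nB library took the calls from KO nB to KO GCB from 20 to 12. At the regions described above the KO values were as follows. The promoter changed by -1.32 ± 0.14 from KO nB to KO GCB, the -43.1 kb region measured 62.8 and 70.5 RPPM in KO nB and 3.89 and 5.04 in KO BMPC, the +45.7 kb region rose by 1.51 ± 0.21 from KO nB to KO GCB, and the +448.7 kb region went from 23.0 and 19.9 RPPM in KO nB to 0 in both KO BMPC libraries. The stage changes of the 2 genotypes were compared directly, and in limma no region had a different change from nB to GCB, from nB to BMPC or from GCB to BMPC, as for 0% of all regions in each case. At an unadjusted p under 0.05 there were 6, 3 and 2 such regions in limma, where 6.21, 5.24 and 8.32% of all regions were. Of edgeR's quasi-likelihood and likelihood ratio tests and DESeq2 on recovered reads, the likelihood ratio test alone called 1, at +276.7 kb for the change from nB to BMPC (-1.35, adjusted p 0.0073), where limma gave -1.17 ± 0.35 (adjusted p 0.51). That test called 0.267% of all regions for this change. The +276.7 kb region rose by 1.72 ± 0.22 in C and had a change of 0.55 ± 0.27 in KO, which was not called.

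Within a cell type, KO and C libraries were not called different at any Ebf1 region in limma, either in nB (0% of all regions called), GCB (0.0317%) or BMPC (0.104%). At an unadjusted p under 0.05 limma gave 1, 7 and 5 of the 54 regions, where 1.67, 11.8 and 9.55% of all regions were under it. edgeR's quasi-likelihood and likelihood ratio tests and DESeq2 also called none in nB or GCB, and in BMPC both edgeR tests called 1 and DESeq2 none. Over all regions these tests called 1.81% (quasi-likelihood), 2.53% (likelihood ratio) and 0.739% (DESeq2) in BMPC, and 1 of 54 is near the shares of the edgeR tests. The median KO minus C difference over the locus was 0.00 in nB, -0.06 in GCB and -0.16 in BMPC on the log2 scale, against -0.01, 0.03 and 0.03 over all regions. In BMPC 17 of the 54 differences, 31.5%, were positive, where 54.2% were over all regions. The T cell list summed to 68.3 to 74.6 RPPM in C BMPC and 51.6 to 52.3 in KO BMPC, and its part in the differences was not tested. The region listed for Cd3d, 4219 bases from its start, averaged 41.1 RPPM in C BMPC, 30.6 in KO BMPC and 62.3 in C nB. The 95% intervals of single regions reached from -1.58 to 1.66 in nB, -1.37 to 2.30 in GCB and -1.55 to 1.51 in BMPC.

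The 1 region that edgeR called in BMPC was at +332.5 kb in intron 10. It measured 5.98, 9.12 and 5.45 RPPM in C BMPC and 3.4 and 2.61 in KO BMPC, and the 2 genotypes did not overlap. The KO minus C difference was -0.95 ± 0.27 (SE; adjusted p 0.10) in limma and -1.19 in edgeR's quasi-likelihood test (adjusted p 0.0052). In nB the same region measured 56.3, 50.5 and 58.8 RPPM in C and 54.8 and 53.9 in KO, and in GCB 28.1 and 28.6 in C and 28.6, 10.8, 22.4 and 11.9 in KO, where the KO values spread widely and reached the C values. The next smallest p values in BMPC were at +276.7 kb, with 21.5, 25.2 and 19.3 RPPM in C and 10.7 and 12.7 in KO (-0.85 ± 0.25, limma adjusted p 0.12), and at +89.7 kb (-0.57 ± 0.23, limma adjusted p 0.34). The +276.7 kb libraries of the 2 genotypes did not overlap either, and this is a region that opened from C nB to C BMPC. The +332.5 and +276.7 kb regions were named for their small p, so their lack of overlap is no further support.

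In GCB the smallest p was at +452.1 kb, where the C libraries measured 0.88 and 0 RPPM and the KO libraries 3.30, 3.82, 3.95 and 1.40 (1.53 ± 0.35, limma adjusted p 0.057). The KO libraries were all above the C libraries, but 4 of the 6 had 3 reads or fewer, and this region too was named for its small p. Next were +66.6 kb (-0.75 ± 0.25, limma adjusted p 0.21) and +146.8 kb (-0.52 ± 0.18, limma adjusted p 0.25), the latter with 44.4 and 39.3 RPPM in C and 17.6, 33.1, 39.5 and 30.1 in KO. In nB the smallest p was at +219.2 kb, with 0.974, 1.51 and 2.05 RPPM in C and 3.62 and 3.54 in KO (0.89 ± 0.34, limma adjusted p 1). The next in nB, +215.3 kb (0.53 ± 0.30) and +190.9 kb (-0.53 ± 0.40), had limma adjusted p of 1. The locus sum differed between KO and C by 0.03 in nB, -0.17 in GCB and -0.20 in BMPC on the log2 scale, with pooled SDs of 0.062, 0.029 and 0.096. In these sums all KO GCB libraries were below both C GCB libraries and both KO BMPC libraries below all 3 C BMPC libraries. As a mean of log2 values the GCB difference was -0.041. These numbers of libraries do not allow an exact permutation p under 0.05 for a comparison of 3 with 2 libraries or of 2 with 4, where the smallest two-sided values are 0.2 and 0.133, and no permutation test is given.

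**Figure D5:**
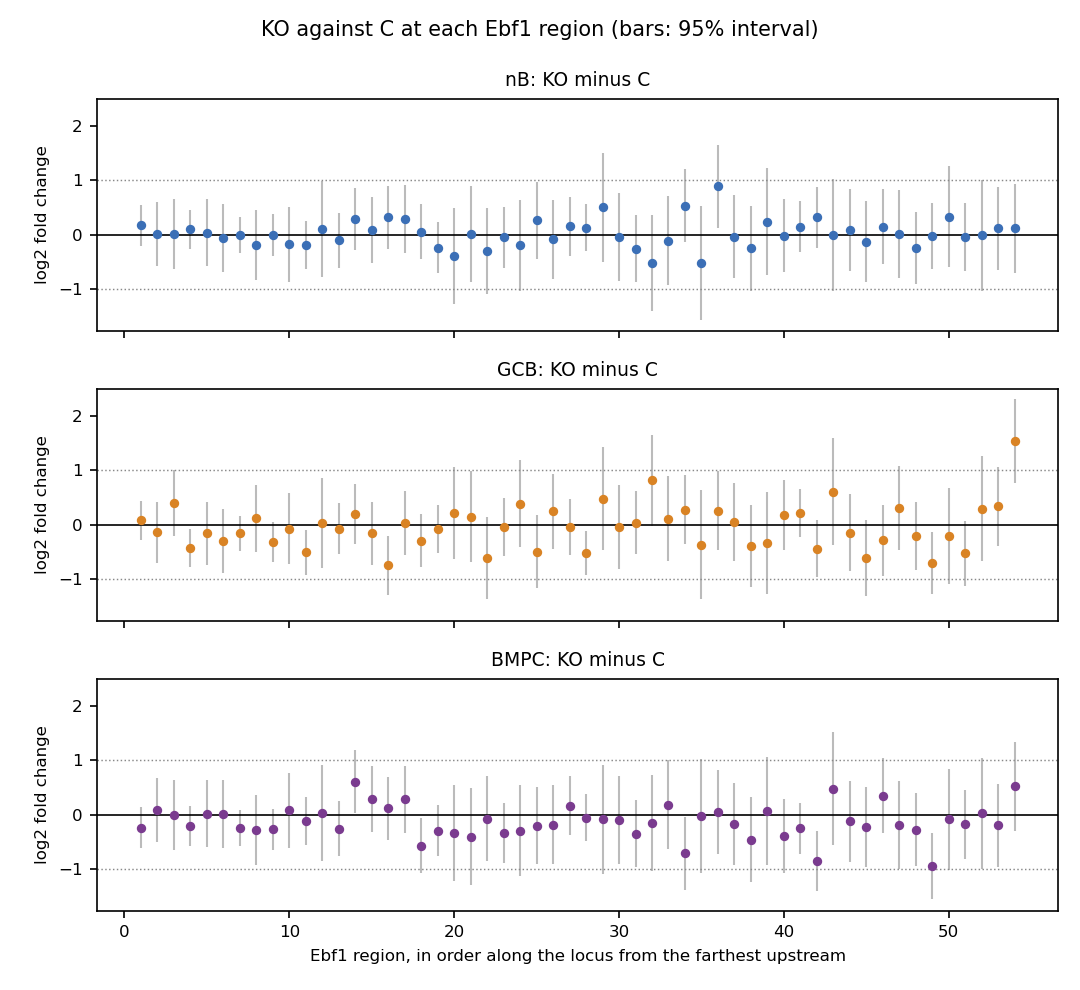
KO minus C log2 fold change (points) with its 95% interval (bars) at each of the 54 Ebf1 regions, in order along the locus, in nB, GCB and BMPC; dotted lines mark a 2-fold difference. Most intervals include 0, and the points farthest from it are 1.53 at +452.1 kb in GCB and -0.95 at +332.5 kb in BMPC.

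The regions were compared by sequence features that the choice of regions did not use. The EBF core TCCCNNGGGA, a palindrome, was in 0 of 54 regions, where 2.42% of all 65891 regions on named chromosomes held it and 2.03% after weighting by width. The E2A core CAGCTG was in 13 regions, 24.1%, against 32.4% of all regions (29.5% by width). The PU.1 core GGAAGT was in 26, 48.1%, against 43.2% (40.1%), and the Oct-2 core ATGCAAAT in 9, 16.7%, against 5.87% (5.56%). These are letters found in the window and not binding sites, and no other motif was searched. The Oct-2 core occurred at chr11:44388406-44388413 and again at chr11:44388952-44388959 in the -43.1 kb region, and at chr11:44880290-44880297 in the +448.7 kb region, as printed above for the first and last of these. Among the 20 regions that fell from C nB to C BMPC 13 held the PU.1 core and 3 the Oct-2 core, and among the 9 that rose 2 and 1 did. CpG dinucleotides, the substrate of DNA methylation, numbered 1.21 per 100 bases in the median Ebf1 region and 1.46 in the median of all regions. The median was 1.57 per 100 bases in the 9 regions that rose and 0.96 in the 20 that fell. The densest were the +0.3 kb region, with 13.2 per 100 bases, and the -4.8 kb region with 9.13, and the +38.9 kb region had none.

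The genes that act with EBF1 were described by the region nearest their start, from lists chosen with earlier results of these data known. Of 12 upstream regulators and partners, all with regions, Pax5, which both activates Ebf1 and is activated by EBF1, went from 40.3 RPPM in C nB to 24.3 in C GCB and 2.84 in C BMPC, a called log2 fold change of -3.44 ± 0.21 (SE) to BMPC. Il7r, the receptor that signals to STAT5, fell by 1.29 ± 0.36 on the log2 scale from C nB, where it was at 4.23 RPPM, to C BMPC. The starts of the other 10 (Tcf3 and Tcf12, which encode E proteins, Ets1, Spi1, which encodes PU.1, Ikzf1, Ikzf3, Foxo1, Runx1, Stat5a and Stat5b) were not called between C nB and C BMPC. From C nB to C GCB the starts of Stat5b (-1.03 ± 0.14) and Il7r (-1.54 ± 0.40) were called less accessible and none more. Those of Tcf3 (-0.80), Tcf12 (-0.84), Ets1 (-0.83), Ikzf1 (-0.95), Ikzf3 (-0.93), Foxo1 (-0.72) and Pax5 (-0.70) fell short of the fold required. Changes at Runx1 (-0.36), Stat5a (-0.16) and Spi1 (0.03) were smaller. From C GCB to C BMPC Tcf12 (1.10 ± 0.16) and Pax5 (-2.74 ± 0.23) were called. Over all 212 regions of these 12 genes, 32 were more and 54 less accessible in C BMPC than in C nB, where 18% and 20.1% of all regions were. The median log2 fold change of the 212 regions was -0.23.

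Among the targets of EBF1, 18 of 19 genes had regions, and of their 184 regions 85 were less and 23 more accessible in C BMPC than in C nB, with a median of -0.86, where 20.1% and 18% of all regions were. Of the 18 starts 10 were called less accessible, none more and 8 were not called. Those that fell included Cd79a and Cd79b, the signaling chains of the B cell receptor (-1.35 ± 0.14 and -1.52 ± 0.17), Ms4a1, which encodes CD20 (-2.50 ± 0.13), Cd22, an inhibitory receptor (-2.90 ± 0.27), and Cxcr5, a homing receptor (-2.96 ± 0.17). In KO against C libraries 1 of these 184 regions was called, more accessible in KO BMPC, where 0.104% of all regions were called in either direction. None was called in nB or GCB, where 0% and 0.0317% of all regions were. The products of the 5 antagonists restrain EBF1, E proteins or the B cell program. From C nB to C BMPC the start of Id3 fell by 1.36 on the log2 scale. Those of Prdm1, which encodes Blimp-1 (0.56), Id2 (-0.04) and Zfp521 (-0.85) were not called. From C GCB to C BMPC the start of Prdm1 rose by 1.05 and that of Id3 changed by -1.05, both called. Of the 84 regions together 18 were called more and 23 less accessible from C nB to C BMPC (18% and 20.1% of all regions). From C GCB to C BMPC 13 and 23 were (11.3% and 19.1%). The 8 neighboring genes on chromosome 11 had 59 regions, which include the -43.1 kb region of the Ebf1 locus. Of these 7 were more and 21 less accessible from C nB to C BMPC (18% and 20.1% of all regions). Their median log2 fold change was -0.48, against -0.56 over the Ebf1 locus. From C GCB to C BMPC 8 were more and 6 less accessible (11.3% and 19.1% of all regions). From C nB to C GCB 1 was more and 17 were less accessible (14.2% and 8.47%). At the start of Adam19, C means were 19.2 RPPM in nB, 4.34 in GCB and 18.1 in BMPC, with a called decrease of -1.91 ± 0.30 and a called increase of 1.85 ± 0.30. The start of Rnf145 was also called less accessible from C nB to C GCB (-1.01 ± 0.18). Those of Ublcp1 (-0.89), Clint1 (-0.82), Lsm11 (-0.62), Thg1l (-0.85), Sox30 (-0.76) and Il12b (-0.09) were not called. The other members of the family, Ebf2, Ebf3 and Ebf4, had 7 regions besides those of Ebf1, and none of the regions nearest their starts was called in a C comparison. For Ebf2 that region lay at -21128 bases from the start. Over all 61 family regions 10 were more and 22 less accessible from C nB to C BMPC (18% and 20.1% of all regions). Ebf1 alone gave 9 and 20 of these.

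Genes whose summed accessibility followed that of Ebf1 most closely were sought among 1362 genes with at least 10 regions, by Pearson's r of log2 summed RPPM over the 16 libraries, with Ebf1 at 51 regions by its transcript name. The highest were Scd1 (r = 0.971), Satb1 (0.961), Ets1 (0.961), Notch4 (0.958) and Cdk13 (0.957), where the median r of all genes was 0.14. Satb1 encodes a chromatin organizer, Ets1 a transcription factor that acts at the Ebf1 promoter, Notch4 a receptor, Scd1 a fatty acid desaturase and Cdk13 a kinase of transcription. The points are libraries of 3 cell types that lie together, and the values share library depth, so these r are a description. The median sum of Notch4 was 1655 RPPM in nB, 946 in GCB and 777 in BMPC, and that of Ets1 720, 553 and 508.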

How the data were processed

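ATAC-seq of sorted nB, GCB and BMPC from C and KO mice was analysed in 16 libraries. Per the labels' processing notes, the authors used Bowtie 1.1.1, Picard 1.127, MACS2 2.1.0.20140616 and edgeR 3.12.1 with build mm9. The deposited values are RPPM, reads per 1000000 reads in regions (an RPM), normalized by the authors, in 1 table of 66177 regions on 31 chromosome or contig names. Its 54 columns of the authors' own 9 comparisons (log2 fold changes and mean log2 CPM, likelihood ratio scores, p-values and false discovery rates, which the authors deposited from edgeR) were not used. No column of per-sample values was left unused, and 1 labelled KO BMPC sample was not analysed here. Whole reads were recovered by dividing by the value of 1 read, and 100% of values came out whole within 0.01 of a read.

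Because the deposited values are normalized, limma 3.58.1 (R 4.3.3) was fitted to log2(RPPM + 1) with 1 mean per group. The fit took in all 16 libraries, let the variance follow the mean, and adjusted p-values over the whole table by Benjamini-Hochberg. Calls needed an adjusted p no greater than 0.01 and a log2 change of 1 or more in either direction. Intervals of 95% used the residual degrees of freedom among libraries. edgeR 4.0.16 (quasi-likelihood and likelihood ratio tests) and DESeq2 1.42.0 on the recovered reads were alternatives, as were other pseudocounts, filters, scalings, fits and the omission of each library. Locus sums were compared by two-sided exact permutation tests over libraries, adjusted over 3 comparisons. Python 3.11.15, numpy 2.4.6, pandas 2.3.3, scipy 1.17.1 and matplotlib 3.10.9 were used, and the fits were tested on simulated data.

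Replicate pairs had a chi-square of 1.22 to 2.22 per region, so all differed beyond sampling noise. The GCB libraries are pools and the others single mice, and p-values measure the spread between these samples. Intervals and limits from read numbers cover counting error only. The values are per region and not per base.

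The regions named were the promoter region and the region nearest the start, the 5 highest in each C cell type, the 5 largest called increases and decreases of each C comparison, any region called between KO and C or else the 3 with the smallest p, and the farthest regions on either side. Other regions named were chosen after their values were seen. The genes of the lists were described by the region nearest their start, and the members and lists were chosen with earlier results of these data known. Sequences came from the NCBIM37 assembly, and 286 regions on other contigs were not searched. Some items of the genotypes and marker lists are not reported here.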

Additional observations from a re-analysis of the deposited data

Results flagged for a closer look

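Of 31 values of named regions and sums in the KO GCB group, the only group of 4 libraries or more, 2 had a library set apart from the others, where chance gives about 1 in 20. At the promoter (-0.9 kb) KO GCB replicate 2 measured 35.6 RPPM, while the other KO GCB libraries measured 23.1, 23.8 and 24.1. At +199.1 kb KO GCB replicate 4 measured 2.80 RPPM, while the others measured 1.10, 1.27 and 1.32, and all but KO GCB replicate 4 were at 3 reads or fewer.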

How the results depend on the processing

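With a pseudocount of 5 RPPM the called Ebf1 regions numbered 5 from C nB to C GCB, 19 from C nB to C BMPC, 9 from KO nB to KO GCB, 17 from KO nB to KO BMPC and 6 from KO GCB to KO BMPC, since a larger pseudocount shrinks the fold of weak regions. With only the compared groups in the fit they numbered 13 from KO nB to KO GCB and 10 from KO GCB to KO BMPC. Both edgeR tests called 1 region between KO and C in BMPC, and the likelihood ratio test 1 in the difference of the change from nB to BMPC. Quasi-likelihood, likelihood ratio and DESeq2 tests called 17, 17 and 15 regions from C nB to C GCB, 35, 35 and 33 from C nB to C BMPC, and 19, 20 and 17 from C GCB to C BMPC. Quantile normalization gave 5 more and 11 less accessible from C nB to C GCB, where the median of all regions moved from 0.05 to -0.06. Leaving out 1 library at a time gave 11 to 16 calls from C nB to C GCB, 27 to 31 from C nB to C BMPC, 11 to 17 from C GCB to C BMPC, 12 to 22 from KO nB to KO GCB, 20 to 27 from KO nB to KO BMPC, 11 to 17 from KO GCB to KO BMPC, and 0 to 0 for each comparison of the genotypes. Where this left 1 library in a group, that library was assumed to vary like the others. Both GCB genotypes have pools called F2 and M1. Their deviations correlated at 0.036 and 0.064, and 2 pairs cannot show whether the pools pair. A replicate block for them gave 9 calls in place of 15 from C nB to C GCB. The log2 difference of locus sums ranged from -0.63 to -0.59 between nB and GCB, from -0.79 to -0.70 between nB and BMPC and from -0.18 to -0.092 between GCB and BMPC when 1 library was left out. The last was 0.035 over the regions named Ebf1 in both columns (exact permutation p = 0.658) and -0.27 as a mean of log2 values (exact permutation adjusted p = 0.00649). Leaving out 1 library, KO minus C sums ranged from 0.00 to 0.08 in nB, -0.18 to -0.15 in GCB and -0.26 to -0.12 in BMPC, and the GCB value was -0.23 with TMM scaling and -0.041 as a mean of log2 values. Weighting by width gave core shares of 2.03% for EBF, 29.5% for E2A, 40.1% for PU.1 and 5.56% for Oct-2. The change at +0.3 kb from C nB to C BMPC, 0.03, ranged from -0.12 without C nB replicate 3 to 0.16 without C BMPC replicate 3, with -0.031 and -0.051 without C BMPC replicates 1 and 2, and that at +452.1 kb from C GCB to C BMPC, -0.34, from -0.80 without C GCB replicate 2 to 0.11 without C GCB replicate 1, and it was -2.11 in DESeq2 (adjusted p 0.23). Apart from the pseudocount and the omissions, the cause was not tested. Over named regions and alternatives, 1270 values kept their direction and side of the threshold, 38 lost a call, 4 gained one and 4 changed sign. GCB depth limits what can be seen at regions under about 3 reads.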
